A study of Homo sapiens with 8 samples.

Results

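Knockouts of 8 homologous recombination genes, BRCA1, BARD1, BRCA2, RAD54L, RAD54B, RMI1, NBN and TONSL, were followed in a pooled CRISPR screen with the EPIKOL library, whose sgRNAs are directed mainly at chromatin regulators. The genes were taken by name from the sgRNA tables, in which all 8 were found among 779 genes tested, each with 10 sgRNAs. All libraries came from Cas9-expressing T1-160 cells, a Taxol-resistant derivative of the triple-negative breast cancer line SUM159PT, infected with the lentiviral library and selected with puromycin while verapamil, an inhibitor of the drug efflux pump P-glycoprotein, was present. The groups were cells grown in 160 nM Taxol for 16 population doublings (3 libraries, Taxol 1 to 3), cells grown for as long in the vehicle DMSO (3 libraries, DMSO 1 to 3), and cells collected once puromycin selection was over, called AP (2 libraries, AP 1 and AP 3). As all 3 groups are one Taxol-selected cell model without a parental counterpart here, no value below compares resistant with sensitive cells. The labels do not state whether each replicate was its own infection or culture, and the spread between these libraries, against which limma tests, may therefore be technical. The gene calls compare ranks of sgRNAs, and that spread enters them only through the ranking.

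Homologous recombination repairs broken or stalled DNA by copying the intact sister chromatid. A break is recognised and its ends are trimmed to single strands, a trimmed strand invades the sister with the help of BRCA2, and the joined molecules are then taken apart. Cells that lose this pathway accumulate chromosome damage as they divide, and tumours with inherited BRCA1 or BRCA2 mutations are known for their sensitivity to PARP inhibitors. In a pooled screen, a knockout that slows division or kills the cell lowers the share of its sgRNAs in genomic DNA. Below, depleted means only that the sgRNAs of a gene ranked low in the gene test. Why they ranked low was not tested.

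The libraries held 2045986 to 11771418 reads, recovered from the steps of the normalized counts. The recombination sgRNAs, 1.02% of all sgRNAs, took 0.471% to 0.731% of the normalized counts in Taxol libraries, 0.771% to 0.960% in DMSO libraries and 0.926% to 0.953% in AP libraries. The 10 most abundant sgRNAs of the library held 6.23% to 10.6% of the counts in Taxol libraries, 2.36% to 2.80% in DMSO libraries and 1.53% to 2.73% in AP libraries, and the part of this skew in the members' shares was not tested. The rarest recombination sgRNA had 5 reads in Taxol 3, 13 in DMSO 1 and 17 in AP 3, the lowest of each group. ABCB1, the gene of P-glycoprotein, was depleted in Taxol against DMSO by -0.87 ± 0.33 on the log2 scale (adjusted p = 0.0309, exact robust rank aggregation). Against AP, its value was 0.52 ± 0.38 in DMSO and -0.31 ± 0.23 in Taxol, neither past the adjustment (adjusted p = 0.532 for enrichment and 0.138 for depletion, same test). Of the 3 efflux transporter genes ABCB1, ABCG2 and ABCC1, only 1 was called in Taxol against DMSO, with a median of -0.13 and a highest value of -0.01. Of 17 genes whose symbols start with RPL or RPS, 14 lay below 0 in DMSO against AP, with a median log2 fold change of -0.57, against 0.15 for all genes. That list is held by ribosomal proteins, needed for growth, and also catches the kinase genes RPS6KA3, RPS6KA4 and RPS6KA5.

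BRCA1 and RMI1 were the recombination knockouts that were depleted. RMI1 was depleted in DMSO against AP and in Taxol against AP, and BRCA1 in Taxol against AP, at an adjusted p under 0.05 by robust rank aggregation (RRA), a test that asks whether the sgRNAs of a gene rank lower, or higher, than uniform ranks would. No recombination gene was called between Taxol and DMSO, and none was called enriched in any comparison. Thus 2 of 8 genes were called depleted in Taxol against AP, where 4.62% of the genes tested were. For DMSO against AP it was 1 of 8, against 2.05% of genes, and in Taxol against DMSO 0 of 8, against 0.257%. Enrichment was called for 1.41%, 0.128% and 0.128% of genes in Taxol against AP, DMSO against AP and Taxol against DMSO. Every gene value below is the mean over the sgRNAs of log2(normalized count + 1), and a fold change is the difference of its group means, given ± the spread of the gene value between libraries (SD, pooled over both groups). On this scale the change of rare sgRNAs is understated. Both comparisons with AP use the same AP libraries, and both comparisons with DMSO the same DMSO libraries, so their values are not independent of each other.

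**Figure D1:**
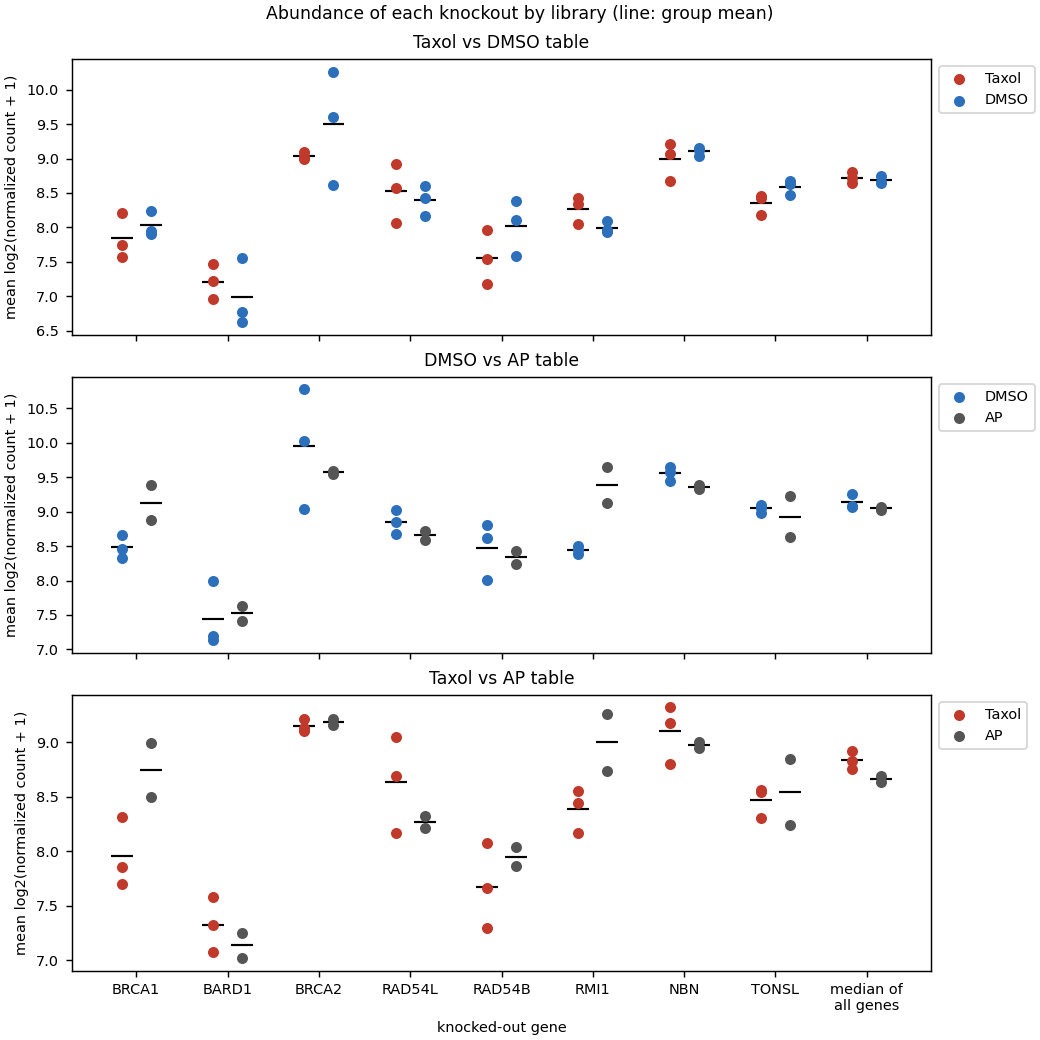
Abundance of each recombination knockout in each library, as the mean over 10 sgRNAs of log2(normalized count + 1), in the 3 tables of the screen, with the median of all genes at the right; points are libraries and lines group means. In the tables with AP, all DMSO and Taxol points of BRCA1 and RMI1 lie below both AP points, and the BRCA2 points of DMSO are spread over more than those of the other groups.

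BRCA1 and BARD1 form the heterodimeric ubiquitin ligase that favours end trimming and the later steps of the pathway. In the table of Taxol and AP, BRCA1 stood at 7.85, 8.32 and 7.70 in Taxol 1 to 3 and at 9.00 and 8.50 in AP 1 and AP 3. All Taxol libraries were thus below both AP libraries, a pattern that 14.5% of all genes showed, and AP 1 was the higher of the AP pair. BRCA1 changed by -0.79 ± 0.33, or 0.578-fold (95% interval of the log2 value -1.31 to -0.27 from limma on gene means), the sixth lowest value of the screen and -0.99 relative to the median gene. It was depleted by RRA (adjusted p = 0.00993), with 9 of 10 sgRNAs lower in Taxol, while limma on gene means, which sets the gene against the spread between libraries, gave an adjusted p of 0.107. The RRA call was lost without AP 1 (-0.54, adjusted p = 0.0582), without AP 3 (adjusted p = 0.0747) and without Taxol 3 (adjusted p = 0.206).

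In the table of DMSO and AP, BRCA1 stood at 8.66, 8.46 and 8.33 in DMSO 1 to 3 and at 9.38 and 8.88 in AP 1 and AP 3. The groups did not overlap here either, DMSO being lower, as for 14.1% of all genes. The log2 fold change was -0.65 ± 0.25 (95% interval -1.13 to -0.17), and -0.40 without AP 1. It passed the unadjusted threshold, an RRA p under 0.05 (exact RRA p = 0.0116), and did not pass the adjustment over all genes (adjusted p = 0.185). Between Taxol and DMSO the BRCA1 values overlapped, at 7.74, 8.21 and 7.58 in Taxol 1 to 3 and 8.24, 7.95 and 7.91 in DMSO 1 to 3. The fold change of -0.19 ± 0.26 had an interval of -0.64 to 0.26 and an RRA adjusted p of 0.983.

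BARD1, the partner of BRCA1, was the least abundant of the 8 knockouts in every library but Taxol 1. Its values overlapped between groups in each comparison. They were 7.58, 7.33 and 7.08 in Taxol 1 to 3 and 7.02 and 7.25 in AP 1 and AP 3. In the other table with AP they were 7.19, 7.13 and 7.99 in DMSO 1 to 3 and 7.41 and 7.63 in AP 1 and AP 3. The fold changes were 0.19 ± 0.23 in Taxol against AP and -0.08 ± 0.40 in DMSO against AP, which is -0.01 and -0.23 relative to the median gene. Between Taxol and DMSO the value was 0.23 ± 0.40, with DMSO 3 standing above DMSO 1 and DMSO 2 (7.56, against 6.78 and 6.62). With all libraries, no BARD1 value passed the unadjusted RRA threshold in either direction. In DMSO against AP it passed for enrichment without DMSO 1 (0.040, exact RRA p = 0.0405, adjusted p = 0.672). Without AP 1 the value there was -0.19. Within single libraries, BRCA1 exceeded BARD1 by 0.27, 0.99 and 0.62 in Taxol 1 to 3 and by 1.97 and 1.25 in AP 1 and AP 3, on the log2 scale. The Taxol libraries were all below the AP libraries in this gap, by 0.98 on average (change -0.98, two-sided exact permutation p = 0.1, the smallest that 10 splits allow). In DMSO against AP the gap changed by -0.57 with overlapping libraries (exact permutation p = 0.6). Between Taxol and DMSO the gap changed by -0.41 (exact permutation p = 0.3, where 0.1 is the smallest possible). Taken by same-numbered Taxol and DMSO libraries, it changed by -1.19, -0.34 and 0.28 for numbers 1 to 3 (exact sign-flip permutation p = 0.5). The pair of BRCA1 and BARD1, and that of RAD54B and RAD54L below, were chosen for the test after their values were seen.

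RMI1 is a scaffold subunit of the complex of the BLM helicase and topoisomerase TOP3A, which dissolves joined recombination intermediates. In the table of DMSO and AP it stood at 8.51, 8.44 and 8.39 in DMSO 1 to 3 and at 9.65 and 9.12 in AP 1 and AP 3. The DMSO libraries lay close together and all below both AP libraries. The fold change was -0.94 ± 0.22, or 0.521-fold (95% interval -1.41 to -0.47), the tenth lowest value of the screen and -1.09 relative to the median gene. RMI1 was depleted by RRA (adjusted p = 0.0158) and also passed limma on gene means (adjusted p = 0.0292), which called 2.18% of all genes. The RRA call was lost without DMSO 3 (-0.91, adjusted p = 0.0657) and without AP 1 (-0.68, adjusted p = 0.0811).

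In the table of Taxol and AP, RMI1 stood at 8.17, 8.44 and 8.55 in Taxol 1 to 3 and at 9.26 and 8.74 in AP 1 and AP 3, again without overlap. It was depleted by -0.61 ± 0.27 (RRA adjusted p = 0.0460, 95% interval -1.10 to -0.12), which is -0.81 relative to the median gene. This call lay close to the threshold, and limma on gene means gave an adjusted p of 0.156 in a comparison where that test called 0.128% of genes. It held without Taxol 2 (adjusted p = 0.0474) and was lost without Taxol 1 (0.0689), Taxol 3 (0.0988), AP 3 (0.123) and AP 1, where the value was -0.35 (adjusted p = 0.406). Between Taxol and DMSO, RMI1 stood at 8.06, 8.33 and 8.43 in Taxol 1 to 3 and at 8.09, 7.93 and 7.96 in DMSO 1 to 3. Only Taxol 1 fell inside the range of DMSO. The value of 0.28 ± 0.15, the highest of the 8 genes in this comparison, did not pass either threshold for enrichment (exact RRA p = 0.0728, adjusted p = 0.858).

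**Figure D2:**
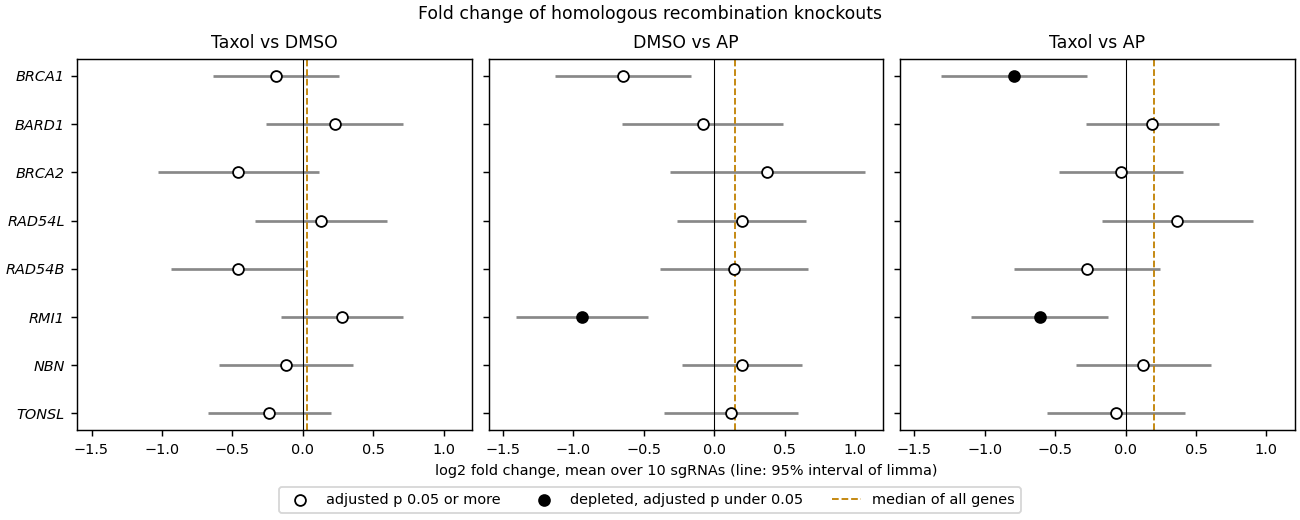
Log2 fold change of the 8 knockouts in the 3 comparisons, as the mean over 10 sgRNAs, with the 95% interval from limma on gene means; the dashed line is the median of all genes, and filled points passed RRA at an adjusted p under 0.05. The filled points are RMI1 in DMSO against AP (-0.94) and BRCA1 (-0.79) and RMI1 (-0.61) in Taxol against AP.

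BRCA2, which acts on the trimmed single-stranded DNA ahead of strand invasion, varied more between DMSO libraries than any other of the 8 genes. In the table of Taxol and DMSO it stood at 9.02, 9.00 and 9.09 in Taxol 1 to 3 and at 8.62, 10.26 and 9.60 in DMSO 1 to 3. DMSO 1 was below all Taxol libraries, and DMSO 2 and DMSO 3 above them. The log2 fold change was -0.46 ± 0.58 (95% interval -1.03 to 0.11). BRCA2 passed the unadjusted threshold (exact RRA p = 0.0402) but not the adjustment (adjusted p = 0.912), and its value was -0.07 without DMSO 2 and -0.89 without DMSO 1. Its sgRNA 741, identified by its number in the library, was lowest, at 248, 351 and 233 normalized counts in Taxol 1 to 3 and 376, 1642 and 906 in DMSO 1 to 3. The values of this sgRNA did not overlap, although DMSO 1 was close to Taxol 2.

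In Taxol against AP, BRCA2 was the least variable of the 8 genes. It stood at 9.14, 9.11 and 9.21 in Taxol 1 to 3 and at 9.16 and 9.21 in AP 1 and AP 3. The fold change was -0.03 ± 0.05, and the 95% interval, -0.48 to 0.41, is wider because limma draws the spread of a gene towards that of all genes. In DMSO against AP the value was 0.38 ± 0.71, with 9.04, 10.78 and 10.03 in DMSO 1 to 3 and 9.55 and 9.59 in AP 1 and AP 3, so that both AP libraries lay inside the range of DMSO. Of the BRCA2 sgRNAs, 744 was the highest there at 2.52, with 1725, 2755 and 709 normalized counts in DMSO 1 to 3 and 159 and 429 in AP 1 and AP 3. That one sgRNA was higher in every DMSO library. The gene did not pass for enrichment (exact RRA p = 0.0541, adjusted p = 0.620).

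RAD54L and RAD54B are related DNA-dependent motor proteins that help the trimmed strand to invade the sister. RAD54B had the lowest fold change of the 8 genes in Taxol against DMSO. It stood at 7.18, 7.96 and 7.54 in Taxol 1 to 3 and at 7.59, 8.11 and 8.38 in DMSO 1 to 3. Taxol 1 and Taxol 3 were below all DMSO libraries, and Taxol 2 lay inside their range. The fold change was -0.46 ± 0.40 (95% interval -0.93 to 0.01), with 8 of 10 sgRNAs lower. RAD54B passed the unadjusted threshold (exact RRA p = 0.0176) and not the adjusted one (adjusted p = 0.818), and the value ranged from -0.68 without DMSO 1 to -0.27 without Taxol 1. With BRCA2, 2 of 8 genes passed unadjusted for depletion in Taxol against DMSO, where 4.88% of all genes did.

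Against AP, RAD54B stood at 7.29, 8.07 and 7.66 in Taxol 1 to 3 and at 8.04 and 7.86 in AP 1 and AP 3, with overlapping groups. The fold change was -0.27 ± 0.33 (exact RRA p = 0.0589, adjusted p = 0.406). RAD54B passed the unadjusted threshold without Taxol 2 (-0.47, exact RRA p = 0.0496) and not without Taxol 1 (-0.08, exact RRA p = 0.147). Without AP 3 the value was -0.36. In DMSO against AP it was 0.14 ± 0.35, at the median gene. RAD54L had 0.13 ± 0.35 in Taxol against DMSO, 0.20 ± 0.15 in DMSO against AP and 0.37 ± 0.36 in Taxol against AP, none past either threshold, and its libraries overlapped in all 3. RAD54L stood at 8.69, 8.17 and 9.05 in Taxol 1 to 3 and at 8.33 and 8.21 in AP 1 and AP 3, so that Taxol 2 was the lowest of all. The gap of RAD54B to RAD54L within libraries changed by -0.59 in Taxol against DMSO, -0.05 in DMSO against AP and -0.64 in Taxol against AP. Its exact permutation p, two-sided, was 0.3, 1 and 0.4 in this order, where 0.1 is the smallest possible. Taken by pairs of the same number, which Taxol and DMSO libraries share, the gap changed by -0.56, -0.05 and -1.16 and RAD54B alone by -0.40, -0.14 and -0.84 in pairs 1 to 3. Both were lower in Taxol in every pair, for which the exact sign-flip permutation p is 0.25, the smallest that 3 pairs allow.

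NBN is the subunit of the MRE11 and RAD50 complex that brings the ATM kinase to breaks. It stood at 9.45, 9.64 and 9.58 in DMSO 1 to 3 and at 9.39 and 9.33 in AP 1 and AP 3, all DMSO libraries being above AP, as for 29.3% of all genes. The difference, 0.20 ± 0.08, was 0.05 above the median gene and passed no threshold (RRA adjusted p = 1 for enrichment). In Taxol against AP it was 0.13 ± 0.22, and in Taxol against DMSO -0.12 ± 0.20, both with overlapping libraries. TONSL binds histones of newly copied chromatin and, with MMS22L, aids recombination at stalled forks. It stood at 8.43, 8.45 and 8.18 in Taxol 1 to 3 and at 8.63, 8.47 and 8.67 in DMSO 1 to 3. All Taxol libraries were below all DMSO libraries, with Taxol 2 and DMSO 2 nearly equal, a pattern seen in 4.49% of all genes. The fold change of -0.24 ± 0.13 passed no threshold (exact RRA p = 0.438, adjusted p = 0.968). Of 6 fits that each left out 1 library, only that without DMSO 2 passed the unadjusted one (-0.30, exact RRA p = 0.0161, adjusted p = 0.649). TONSL had 0.12 ± 0.25 in DMSO against AP and -0.07 ± 0.27 in Taxol against AP, where AP 1 and AP 3 lay apart at 8.24 and 8.85.

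Counted over the 8 genes, 5 had a fold change below 0 in Taxol against DMSO (44.9% of all genes), 3 in DMSO against AP (36.7%) and 5 in Taxol against AP (32.3%). The medians over the 8 genes were -0.15, 0.13 and -0.05 in the same order, beside 0.03, 0.15 and 0.20 over all genes. At the unadjusted threshold 2 of 8 were depleted in each comparison with AP, BRCA1 and RMI1 in both, beside 11.8% of genes in DMSO against AP and 13.2% in Taxol against AP. None of the 8 was enriched unadjusted, beside 6.68% of genes in Taxol against DMSO, 8.22% in DMSO against AP and 8.47% in Taxol against AP. None had all Taxol libraries above those of DMSO (6.29% of genes) or above those of AP (32.3%). Limma on gene means called none of the 8 in Taxol against DMSO, where it called 0.128% of genes. When each library was centred on its non-targeting sgRNAs, the median gene moved to -0.14, -0.16 and -0.33 in the same order, and the sign of RAD54L turned in all 3 comparisons, that of RAD54B, NBN and TONSL in DMSO against AP, and that of BARD1 and NBN in Taxol against AP. The values of BRCA1 and RMI1 against AP stayed below 0 and were lower than as deposited.

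**Figure D3:**
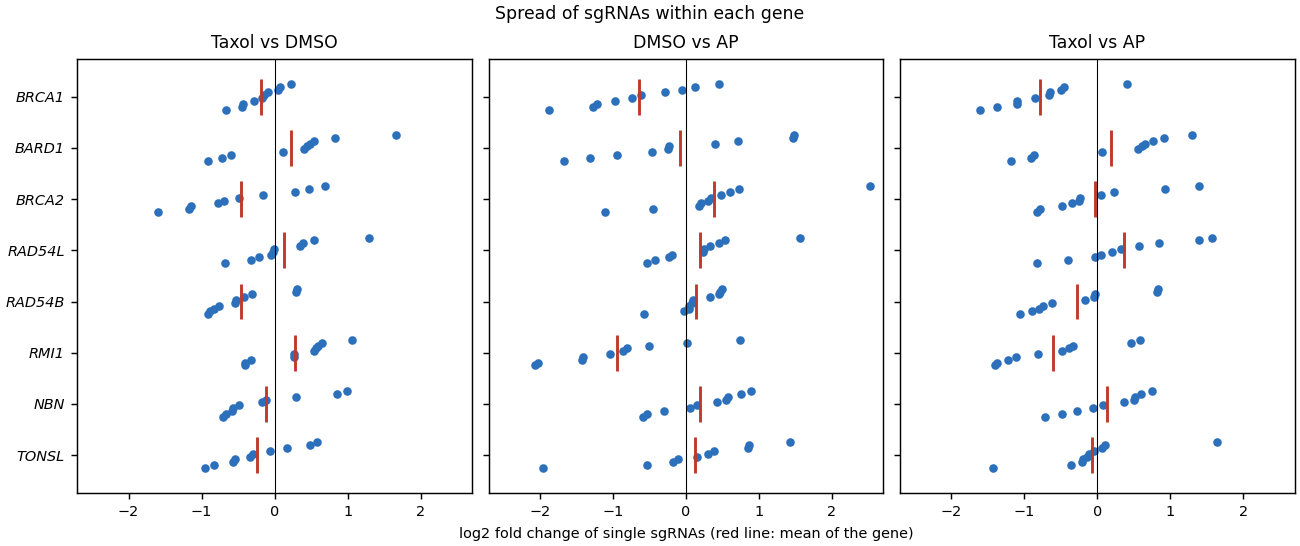
Log2 fold change of the single sgRNAs of each recombination gene in the 3 comparisons, with 1 point per sgRNA and the mean of the gene as a red line. For BRCA1 in Taxol against AP 9 of 10 points lie below 0, whereas the points of BARD1 run from -1.18 to 1.30 around a mean of 0.19.

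The 10 sgRNAs of a gene target the same gene and were read in the same libraries, so they are not replicates of a condition, but they show how evenly a value is carried. Those named here and above were mostly picked as extremes of their gene. The share of all sgRNAs with groups that do not overlap was not computed. RMI1 in DMSO against AP had 8 of 10 sgRNAs among the lowest 25% of all ranks. The RRA call was made from these same ranks, so the count is no further evidence for it. The lowest was sgRNA 5194, with 146, 244 and 171 normalized counts in DMSO 1 to 3 and 1191 and 499 in AP 1 and AP 3 (log2 fold change -2.07). The next, 5196, had 95.9, 132 and 106 in DMSO 1 to 3 and 468 and 438 in AP 1 and AP 3 (-2.03). Both were lower in every DMSO library. At the other end, sgRNA 5200 had 1992, 2281 and 1501 normalized counts in DMSO 1 to 3 and 809 and 1595 in AP 1 and AP 3 (0.74). Together with 5199, at 0.012, it was 1 of 2 sgRNAs of the gene above 0, both with overlapping groups.

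BRCA1 in Taxol against AP had 9 of 10 sgRNAs in the lowest 25%, again the ranks behind its call. Its lowest, 733, had 110, 149 and 137 normalized counts in Taxol 1 to 3 and 576 and 281 in AP 1 and AP 3 (-1.61), without overlap. In DMSO 1 to 3, in the other table, 733 had 254, 129 and 87.2 beside 755 and 367 in AP 1 and AP 3 (-1.88). The exception was 737, with 819, 386 and 326 in Taxol 1 to 3 and 431 and 291 in AP 1 and AP 3 (0.40). The sgRNAs of BARD1 pointed in both directions. They ran from -1.67 for 631 to 1.48 for 636 in DMSO against AP. The SD between sgRNAs was 1.09, the largest of the 8 genes, against 0.93 for BRCA2, 0.93 for TONSL, 0.87 for RMI1 and 0.72 for BRCA1. BARD1 was also the least abundant of the 8 in that comparison, and the part of low counts in its spread was not tested.

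In TONSL 2 sgRNAs stood apart from the rest of the gene, in opposite directions. The low one was 6523, with 69.7, 124 and 82.4 normalized counts in DMSO 1 to 3 and 416 and 294 in AP 1 and AP 3 (-1.96), and with 98.8, 125 and 79.1 in Taxol 1 to 3 and 317 and 226 in AP 1 and AP 3 of the other table (-1.42). It was low in all DMSO and Taxol libraries, while the other 9 TONSL sgRNAs were at -0.53 or above in DMSO against AP. The high one was 6529, with 807, 1448 and 2374 normalized counts in Taxol 1 to 3 and 194 and 1043 in AP 1 and AP 3 (1.64), and with 1.43 in DMSO against AP. Its groups overlapped in both comparisons, as AP 3 lay far above AP 1.

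No sgRNA of the library, of 7855 tested, passed an adjusted p under 0.05 in limma, and the lowest adjusted p among the 80 recombination sgRNAs was 0.695. Unadjusted, 8 were lower and 1 higher in Taxol against AP at a p under 0.05, beside 3.90% and 2.24% of all sgRNAs. For DMSO against AP it was 6 lower and 2 higher, beside 3.65% and 3.21%, and in Taxol against DMSO 1 lower and 1 higher, beside 1.55% and 2.01%. The 80 non-targeting sgRNAs, which cut nowhere by design, had median fold changes of 0.11 in Taxol against DMSO, 0.43 in DMSO against AP and 0.68 in Taxol against AP, above the median gene in each. Below their 5th percentile lay 32 of the 80 recombination sgRNAs in Taxol against AP (23.9% of all sgRNAs), 17 in DMSO against AP (13.7%) and 7 in Taxol against DMSO (8.94%).

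From a list of other recombination genes, UBE2T was tested. UBE2T, the ubiquitin-conjugating enzyme of the Fanconi anaemia pathway, was depleted in Taxol against AP by -0.79 ± 0.30 (RRA adjusted p = 0.0118), with -0.47 ± 0.29 in DMSO against AP (adjusted p = 0.390). Beside it stand -0.79 for BRCA1, -0.61 for RMI1 and -0.03 for BRCA2 in Taxol against AP. UBE2T passed no threshold in Taxol against DMSO.

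Of chromatin regulators linked to recombination, 11 were tested. BAP1, a deubiquitinase of histone H2A, and SETD2, the histone H3 lysine methyltransferase of transcribed genes, were depleted in Taxol against AP, by -0.70 ± 0.32 (RRA adjusted p = 0.0194) and -0.56 ± 0.24 (adjusted p = 0.0149). None of the 11 was called in the other comparisons. The acetyltransferase gene KAT5 passed only unadjusted (-0.44, exact RRA p = 0.00523), and the median of the list was -0.10 in Taxol against AP, -0.09 in DMSO against AP and -0.14 in Taxol against DMSO. Unadjusted, SETD2 was lower in DMSO against AP (-0.41) and PSIP1 was higher there (0.85). PSIP1 (-0.42) and INO80 (-0.30) were lower in Taxol against DMSO, and SMARCAD1 was higher (0.31). Over all genes, 4.88% passed unadjusted for depletion in Taxol against DMSO, 11.8% in DMSO against AP and 13.2% in Taxol against AP. For enrichment the shares were 6.68%, 8.22% and 8.47% in the same order.

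Among 18 break signalling genes none was called in any comparison, and the medians were -0.01 in Taxol against DMSO, 0.11 in DMSO against AP and 0.04 in Taxol against AP. Of these, PAXIP1 passed unadjusted for depletion in Taxol against AP (-0.43, exact RRA p = 0.0285). USP3 passed for enrichment there and in Taxol against DMSO (0.72 and 0.44), BRE for enrichment in Taxol against AP (0.32), and UBE2N for enrichment in DMSO against AP (0.26). In Taxol against DMSO the sgRNAs of UBE2N passed in both directions at once (-0.11). Per direction and comparison 0 to 2 of the 18 genes passed, beside the shares of all genes given for the chromatin regulators. Of the PARP family, PARP1, PARP2, PARP3 and PARG, none was called. PARG passed unadjusted for depletion in DMSO against AP (-0.57, exact RRA p = 0.0277), where 11.8% of all genes did.

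Genes with a pattern like that of the depleted members were sought by the root mean square difference of the 3 fold changes, which share libraries and so amount to fewer independent values. Nearest to BRCA1 were RBBP4, a histone-binding subunit of several chromatin complexes (distance 0.0039 on the log2 scale), PRMT1, an arginine methyltransferase (0.033), and RPL12, a ribosomal protein (0.12), where the median distance to all genes was 0.765. Nearest to RMI1 were NR3C1, the glucocorticoid receptor (0.038), EXOSC8, a subunit of the RNA exosome (0.070), and WDR77, a partner of the methyltransferase PRMT5 (0.080), with a median distance of 0.821. None of these belongs to the recombination list, and a small distance over so few values is a description only.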

How the data were processed

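The authors deposited 3 sgRNA tables from MAGeCK 0.5.8 (per the submitters' processing notes) holding other values than raw reads, namely normalized counts joined in a cell per group; their own fold change, score and p-value columns were not used. How reads were trimmed and mapped is not given in the sources used here. As the 3 tables were scaled separately, tests stayed within a table. Values were assigned to libraries in the order of the replicate numbers, an assumption. AP cells hold 3 values while labels name replicates 1 and 3, so 2 value columns (the second AP value) were not used. Of 7856 sgRNA lines, 1 without a gene was left out.

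Normalized counts were taken as log2(count + 1) and tested per sgRNA with limma 3.58.1 (lmFit, eBayes with trend; R 4.3.3). Ranks of the moderated statistic were combined per gene by RRA over the outer 25% of ranks, one-sided, with p from the exact distribution for uniform ranks and Benjamini-Hochberg adjustment over 779 genes per direction. RRA is the study's gene test, and its threshold was an unadjusted p under 0.05. Here that threshold was applied to p-values rebuilt from limma ranks, so a gene that passes it is not thereby a hit of the study. Limma on gene means gave intervals (95%). The exact RRA p was checked against uniform draws, and the scripts were run on simulated counts. Noise there was drawn separately for each sgRNA, without a spread shared by the sgRNAs of a gene. Named were all 8 genes, their lowest and highest sgRNAs, genes of the lists past an unadjusted p under 0.05, and the 3 genes most like each called member; sgRNAs 5196 and 5199 were added after their values were seen. One item of the lists is not reported here. The members and lists were chosen with earlier results of these data known.

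Reads were recovered from the step of each library, and 100% of values under 1000 were whole within 0.1 read. Same-numbered Taxol and DMSO libraries deviated together (r = 0.169, 0.131 and 0.206). Their numbers were taken as pairs, on the assumed order, only in the sign-flip test and in the replicate block. The other RRA, limma and interval values of Taxol against DMSO were obtained without pairing. Numbers shared with AP gave r of 0.036, 0.010, -0.017 and 0.014. Alternatives were another pseudocount, a filter, scalings, rankings, tests, the replicate block and leaving out each library.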

Additional observations from a re-analysis of the deposited data

How the results depend on the processing

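Of 368 values of single genes under another setting, 328 kept their direction and side of the threshold, 19 lost a call and 21 changed sign. The RMI1 call in DMSO against AP was lost with gene medians in limma (adjusted p = 0.115) and with RRA over 10% of ranks (0.0665), leaving 0 members. In Taxol against AP, 1 member was left when libraries were centred on non-targeting sgRNAs (RMI1 adjusted p = 0.0550) or sgRNAs ranked by fold change (0.0772), and 0 with limma on gene means, gene medians or RRA over 10% of ranks. Without single libraries, 0 to 1 members were called in DMSO against AP and 0 to 2 in Taxol against AP. The cause was not tested.

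At the unadjusted threshold, the 2 members depleted in Taxol against DMSO became 1 with a pseudocount of 5, without sgRNAs under 50 counts, with gene medians or without the trend, 0 with limma on gene means or RRA over 10% of ranks, and 0 to 2 without single libraries. Without DMSO 2 the 1 member was TONSL (exact RRA p = 0.0161), while BRCA2 (p = 0.597) and RAD54B (p = 0.0657) did not pass. For DMSO against AP, 1 member instead of 0 was enriched after non-targeting centring, ranking by fold change or RRA over 10%, and 0 to 2 without single libraries. In Taxol against AP, 1 was enriched with gene medians, and 1 to 3 were depleted without single libraries.

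Centring on non-targeting sgRNAs turned RAD54L to -0.044 in Taxol against DMSO, -0.11 in DMSO against AP and -0.16 in Taxol against AP. It turned RAD54B to -0.17, NBN to -0.11 and TONSL to -0.19 in DMSO against AP, and BARD1 to -0.34 and NBN to -0.40 in Taxol against AP. Gene medians turned NBN to -0.13 there. The replicate block changed no member's call in any comparison. Against AP it keeps only numbers 1 and 3, and it turned BRCA2 to -0.036 and BARD1 to 0.071 in DMSO against AP.

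Leaving out single libraries turned signs within these ranges. In Taxol against DMSO, RAD54L ran from -0.076 to 0.36 and NBN from -0.23 to 0.038. In DMSO against AP, BRCA2 ran from -0.036 to 0.83, BARD1 from -0.36 to 0.071, RAD54B from -0.022 to 0.38 and TONSL from -0.18 to 0.42. In Taxol against AP, TONSL ran from -0.37 to 0.23. Other values kept their sign but differed from the value with all libraries by a factor over 1.5. These were, in Taxol against DMSO, BARD1 (0.043 to 0.51), BRCA1 (-0.37 to -0.057), BRCA2 (-0.89 to -0.074), RAD54B (-0.68 to -0.27) and TONSL (-0.30 to -0.15). In DMSO against AP they were BRCA1 (-0.90 to -0.40) and RAD54L (0.11 to 0.28), and in Taxol against AP BARD1 (0.064 to 0.32), BRCA2 (-0.064 to -0.0080), NBN (0.015 to 0.28), RAD54B (-0.47 to -0.082), RAD54L (0.16 to 0.60) and RMI1 (-0.87 to -0.35). The remaining called values stayed within that factor but also moved. RMI1 ran from -1.20 to -0.68 in DMSO against AP, and BRCA1 from -1.04 to -0.54 in Taxol against AP. With 2 AP libraries, of which AP 1 held the higher BRCA1 and RMI1 values, all 3 calls against AP rest on few libraries. For the other members, the 95% intervals from limma on gene means held both negative and positive values in every comparison. Neither a change nor its absence was thus shown for them.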
